A study of Homo sapiens with 6 samples.

Results

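The nuclear-encoded subunits of the respiratory chain and ATP synthase were followed in RNA-seq counts of 22Rv1 cells. The members were taken by gene symbol: the symbol had to name a subunit of complex I (NDUFA, NDUFB, NDUFC, NDUFS or NDUFV), II (SDHA to SDHD), III (UQCR), IV (COX4 to COX8) or V (ATP5), with no pseudogene ending and a summed count of at least 60 over the 6 libraries. Of 29804 symbols, 88 had such a name, 3 of these were pseudogene symbols and 7 had fewer counts, which left 78 members. Complex I gave 38, complex II 4, complex III 9, complex IV 10 and complex V 17 members, and all 78 also passed the filter on low counts that left 14672 genes to test. The rule itself used no measured value other than the minimum count.

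22Rv1 is a human prostate carcinoma epithelial cell line. Untreated WT cells were taken at week 0, age matched (AM) cells were grown for 6 weeks without drug, and 6WP cells received phleomycin, a radiomimetic that breaks DNA, at 1 µg/ml daily on week days for 6 weeks. There were 2 libraries per group, labelled as biological replicates of 1 cell line. AM differs from WT in time in culture, and 6WP differs from WT in both time and drug.

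The respiratory chain sits in the inner mitochondrial membrane. Complexes I and II pass electrons from NADH and succinate to ubiquinone, complex III passes them on to cytochrome c and complex IV to oxygen, and complexes I, III and IV pump protons that drive ATP synthase, complex V. Most subunits are encoded in the nucleus and imported, and a few are encoded by mitochondrial DNA. The 13 mitochondrially encoded subunits were not analysed here.

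Library totals ran from 21222201 to 35311945 counts. Levels are given as CPM, counts scaled to library size and TMM factors, and an error beside a fold change is its standard error (SE). A member was called when edgeR's quasi-likelihood test, fitted to all 6 libraries, gave a Benjamini-Hochberg adjusted p under 0.05 over the 14672 genes. The prostate luminal markers KLK2, KLK3, FOLH1, HOXB13, KRT8, KRT18 and EPCAM had counts in every library, with HOXB13 at 437 to 719 CPM and KLK3 at 49.3 to 107 CPM. These 7 markers summed to 1635 and 1743 CPM in WT, 1361 and 1587 CPM in AM and 1707 and 2019 CPM in 6WP. On the log2 scale FOLH1 was lower in AM than WT at -0.66 (SE 0.17, adjusted p = 0.0360), KRT8 lower at -0.78 (SE 0.15, adjusted p = 0.0132) and KLK2 higher at 0.81 (SE 0.12, adjusted p = 0.00759). In 6WP against AM FOLH1 was higher at 1.11 (SE 0.17, adjusted p = 0.00670) and KLK2 lower at -0.50 (SE 0.12, adjusted p = 0.0267). The part of these marker changes in the member results was not tested. Fibroblast markers summed to 1.80 to 4.23 CPM, leukocyte markers to 3.35 to 4.0 CPM and endothelial markers to at most 0.14 CPM. PTPRC, CD3E, MS4A1, CDH5 and KDR were at 0 counts in every library. The 6WP libraries stood apart from each other: the chi-square per degree of freedom between replicates, over genes with a count, was 52.1 in 6WP, 7.59 in AM and 4.80 in WT, where counting error alone gives about 1. The 6WP levels of most named genes are therefore given for each library. Fold changes take both 6WP libraries together unless stated, and some are given without the 2 levels.

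The members as a group took a larger share of the RNA counts in AM than in WT, and the 6WP libraries fell on either side of WT. They held 1.70% and 1.62% of all counts in WT, 1.90% and 1.97% in AM, and 1.86% and 1.48% in 6WP replicates 1 and 2. Both AM libraries were thus above both WT libraries, whereas the first 6WP library lay near AM and the second below WT. Relative to the WT mean, the median member stood 0.27 and 0.39 higher on the log2 scale in the AM libraries, 0.22 higher in 6WP replicate 1 and -0.14 in 6WP replicate 2. For all tested genes the same medians lay between -0.00083 and 0.011. In bulk RNA, fewer cells with a transcript and less transcript per cell cannot be told apart.

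**Figure D1:**
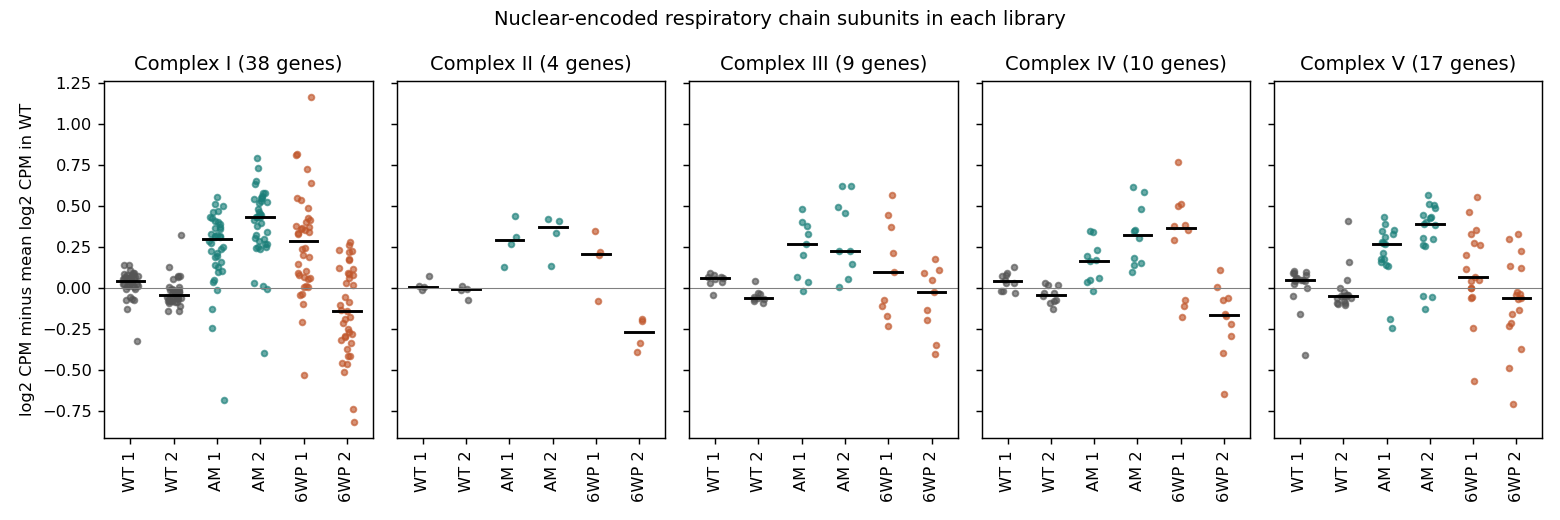
Each point is 1 member in 1 library, as log2 CPM minus its mean log2 CPM in WT (vertical axis), by complex, with black lines at medians. Medians in both AM libraries are above 0 in each of the 5 complexes, and in each complex the median of 6WP replicate 2 is below 0 and that of 6WP replicate 1 above it.

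Most subunits had higher values in AM than in WT cells, and 10 of them passed the test. Of the 78 members, 72 had a positive fold change and 6 a negative one, with a median log2 fold change of 0.32, beside -0.0023 over all tested genes. The test called 10 members higher (12.8% of members) and 0 lower, where it called 7.74% of all genes higher and 9.93% lower. In 64 members both AM libraries exceeded both WT libraries, and in 2 both were below, against 36.9% of all genes in the higher direction and 36.9% in the lower. At an unadjusted p under 0.05, 31 members were higher and 0 lower, beside 17% and 18.3% of all genes. DESeq2's Wald test called 14 higher and 0 lower, beside 10.3% and 10.5%.

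These calls rest on a spread that all 6 libraries share, and the unlike 6WP libraries enter it. When WT and AM were fitted without them, 55 members were called higher and 1 lower (NDUFA4L2), beside 23.8% and 22.7% of 14228 genes. Leaving out any 1 WT or AM library instead gave 0 members called and 5 to 18 at an unadjusted p under 0.05, where these fits called 0.448% to 0.902% of all genes and put 19.5% to 22.5% under that unadjusted p. Such a fit takes the lone library to vary as the other groups do. A correction for transcript length lowered the median member from 0.32 to 0.17 and gave 4 members called higher and 1 lower (NDUFA4L2), beside 8.74% and 10.6% of all genes. Of these 4, ATP5A1, NDUFA9 and NDUFS6 were among the 10 calls and NDUFV3 was not. The lengths used were of GENCODE canonical transcripts, at 5761 bases for ATP5A1, 8356 for NDUFA9, 5725 for NDUFV3 and 518 for NDUFS6. With the correction the changes of the 3 long ones rose to 0.54, 0.68 and 0.46, and that of NDUFS6 fell to 0.36. Whether these cells express transcripts of those lengths was not tested. Of the 10 calls, those of NDUFS8, NDUFB10 and COX6B1 held in the fewest alternative fits, 6, 7 and 9 of 19.

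The median was above 0 in each of the 5 complexes. Median log2 fold changes of AM against WT were 0.35 for complex I, 0.33 for complex II, 0.27 for complex III, 0.22 for complex IV and 0.32 for complex V. Complex I had 6 of 38 members called higher, complex II 0 of 4, complex III 1 of 9, complex IV 1 of 10 and complex V 2 of 17. As shares these are 15.8%, 0%, 11.1%, 10% and 11.8%, beside 7.74% of all genes, so complexes III to V rest on 1 or 2 genes each. Groups did not overlap, with AM higher, in 32, 4, 7, 7 and 14 members in that order, beside 36.9% of all genes. Whether the complexes differ from each other was not tested.

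In complex I, the NADH dehydrogenase, the 7 nuclear-encoded core subunits, which form the catalytic arm, had a median of 0.38, with 2 called, and the other 31 members with complex I symbols 0.34, with 4 called. NDUFS8, a core subunit with iron-sulphur clusters, had 61.7 and 68.4 CPM in WT, 91.7 and 108 CPM in AM and 114 and 79 CPM in 6WP. Its AM against WT log2 fold change was 0.62 (SE 0.18, adjusted p = 0.0499), the largest rise among the members. NDUFV2, a core subunit with an iron-sulphur cluster, was at 196 and 183 CPM in WT, 245 and 274 CPM in AM and 191 and 222 CPM in 6WP, a change of 0.45 (SE 0.12, adjusted p = 0.0385). AM lay above both other groups for NDUFV2, while NDUFS8 in 6WP replicate 1 exceeded both AM libraries. The core subunits NDUFS1 and NDUFV1 were not called, at 0.08 (SE 0.14, adjusted p = 0.722) and 0.21 (SE 0.13, adjusted p = 0.263).

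Among the accessory subunits, NDUFB4 had 191 and 171 CPM in WT, 265 and 263 CPM in AM and 182 and 159.9 CPM in 6WP. All 4 WT and 6WP libraries were below both AM libraries, and AM exceeded WT by 0.55 (SE 0.11, adjusted p = 0.0180) on the log2 scale. NDUFS6 was at 51.8 and 50.6 CPM in WT, 73.1 and 79.3 CPM in AM and 60.6 and 46.4 CPM in 6WP, with AM above WT by 0.57 (SE 0.14, adjusted p = 0.0317). NDUFA9, an accessory subunit near the ubiquinone site, was at 158 and 141 CPM in WT, 202 and 209 CPM in AM and 103 and 116 CPM in 6WP, an AM change of 0.46 (SE 0.11, adjusted p = 0.0304). NDUFB10 had 124 and 122 CPM in WT, 163 and 179.9 CPM in AM and 179 and 138 CPM in 6WP, an AM change of 0.48 (SE 0.14, adjusted p = 0.0486). For NDUFB10 the first 6WP library lay within the AM range and the second between WT and AM.

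Complex II, succinate dehydrogenase, is shared by the citric acid cycle and the chain. None of its 4 genes was called in any comparison, by edgeR at an adjusted p under 0.05. At an unadjusted p under 0.05, 1 was higher in AM than WT and 1 lower in 6WP than AM, and DESeq2 called 1, in 6WP against AM. SDHA, the flavoprotein, was at 155 and 157 CPM in WT, 194 and 207 CPM in AM and 181 and 119 CPM in 6WP, and SDHB, the iron-sulphur subunit, at 120.2 and 119.7 CPM in WT, 162 and 160.2 CPM in AM and 152 and 104 CPM in 6WP. In both genes the AM libraries were above WT, with 6WP replicate 1 above WT and 6WP replicate 2 below it. Fold changes of AM against WT were 0.36 (SE 0.18, adjusted p = 0.194) for SDHA and 0.43 (SE 0.17, adjusted p = 0.110) for SDHB.

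In complex III, UQCR10, a small subunit, had 146 and 135 CPM in WT, 183 and 216 CPM in AM and 125 and 110.1 CPM in 6WP. The 3 groups did not overlap, with AM highest and 6WP lowest, and AM exceeded WT by 0.51 (SE 0.13, adjusted p = 0.0308). UQCRC1, a core protein, was at 348 and 332 CPM in WT, 473 and 522 CPM in AM and 502 and 351 CPM in 6WP. It was higher in AM by 0.55 (SE 0.17, unadjusted p = 0.0107, adjusted p = 0.0560) and was not called. For UQCRC1, 1 of the 6WP libraries lay within the AM range and the other just above WT. UQCRFS1, the Rieske iron-sulphur protein, had an AM change of 0.21 (SE 0.11, adjusted p = 0.215). The other core protein, UQCRC2, was at -0.01 (SE 0.10, adjusted p = 0.966).

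In complex IV, cytochrome c oxidase, COX6B1 was at 178 and 167 CPM in WT, 218 and 259 CPM in AM and 164 and 141 CPM in 6WP. AM was above WT by 0.47 (SE 0.13, adjusted p = 0.0430), and both 6WP libraries were below WT. COX4I1 and COX5A, which lie next to the catalytic core, were not called at 0.06 (SE 0.11, adjusted p = 0.712) and 0.26 (SE 0.11, adjusted p = 0.126). Several complex IV subunits exist as tissue isoforms, and here 1 of each pair carried the counts. COX4I2, COX6A2, COX7A1 and COX7B2 had 0 counts in all 6 libraries, which allows up to 3 counts per library or 0.0850 to 0.141 CPM, for counting error only. COX6B2 had 5 and COX8C 7 counts in all. Their counterparts COX6A1, COX7A2, COX7B and COX8A had AM against WT changes of 0.19, 0.12, 0.29 and 0.49, none of them called.

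In complex V, the catalytic head subunit ATP5A1 (now ATP5F1A) had 1304 and 1226 CPM in WT, 1658 and 1709 CPM in AM and 1304 and 1377 CPM in 6WP. AM exceeded WT by 0.41 (SE 0.11, adjusted p = 0.0375). ATP5B (ATP5F1B), the subunit with the catalytic sites, was at 2337 and 2182 CPM in WT, 2730.0 and 2772 CPM in AM and 2175 and 2057 CPM in 6WP, and its AM change was 0.28 (SE 0.11, adjusted p = 0.117). ATP5H (ATP5PD), a peripheral stalk subunit, was at 154 and 144 CPM in WT, 201 and 211 CPM in AM and 156 and 133 CPM in 6WP, with AM above WT by 0.47 (SE 0.12, adjusted p = 0.0305). For ATP5H the first 6WP library was above both WT libraries and the second below both. The 6 members with a negative AM against WT change were NDUFA4L2, ATP5E, NDUFS4, ATP5G2, NDUFA10 and UQCRC2, from -0.53 to -0.0070.

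**Figure D2:**
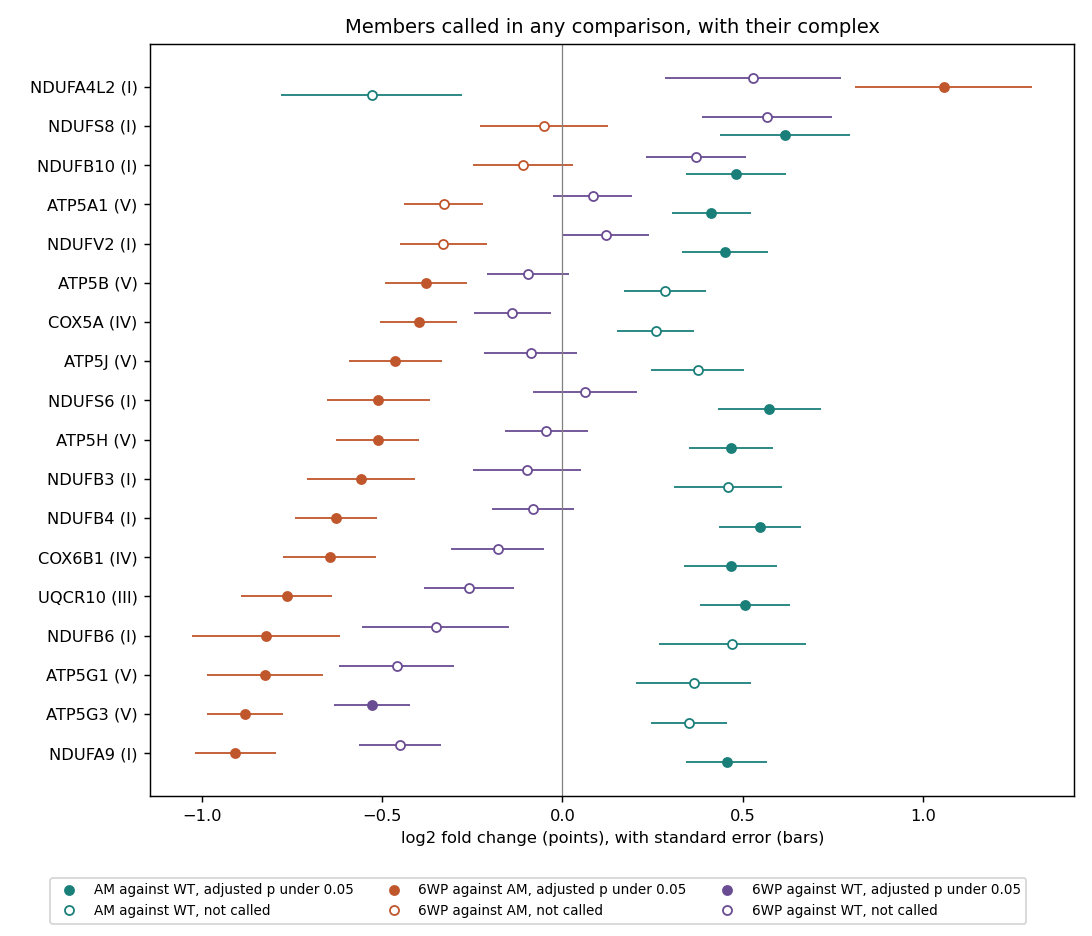
Log2 fold change (horizontal axis) with its standard error for the 18 members called in any comparison, with filled points where the adjusted p was under 0.05. Changes of 6WP against AM range from -0.91 for NDUFA9 to 1.06 for NDUFA4L2, while only ATP5G3 has a filled point for 6WP against WT.

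At equal time in culture, most subunits had lower values in 6WP than in AM cells, and 13 passed the test. Here 63 members had a negative and 15 a positive log2 fold change, with a median of -0.25 beside 0.048 over all tested genes. The test called 13 members lower (16.7% of members), beside 9.68% of all genes, and 1 higher, beside 11.7%. Both 6WP libraries lay below both AM libraries in 35 members and above them in 4, where all genes gave 28.5% and 33.8%. The AM libraries serve in this comparison and in the one with WT, so the fold changes are not independent. The called counts moved with the 6WP library used: 54 members were lower and 2 higher without replicate 1, beside 22.4% and 23.4% of all genes, and 23 lower and 6 higher without replicate 2, beside 17.5% and 16%. Fits without 1 WT library gave 6 lower members, beside 3.97% and 4.38% of all genes, and fits without AM replicate 1 or 2 gave 1 and 0, beside 0.659% and 0.414%. The fit to AM and 6WP alone also gave 6, beside 4.44%.

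By complex, 5 of 38 complex I members were called lower and 1 higher. In complexes II to V, 0 of 4, 1 of 9, 2 of 10 and 5 of 17 were called lower and 0 higher. All genes gave 9.68% lower and 11.7% higher. The median log2 fold changes of 6WP against AM were -0.24, -0.33, -0.22, -0.16 and -0.28 for complexes I to V. Of the 6 calls counted here under complex I by symbol, 5 were accessory subunits and 1 was NDUFA4L2, and the 7 core subunits had 0 calls with a median of -0.19.

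NDUFA9 had the largest fall, at -0.91 (SE 0.11, adjusted p = 0.00363), and its 6WP libraries at 103 and 116 CPM were below every WT and AM library. NDUFB6 fell by 0.82 (adjusted p = 0.0268), with 6WP libraries at 88.6 and 54.6 CPM against 122 and 131 CPM in AM. NDUFB4, NDUFB3 and NDUFS6 were lower at -0.63, -0.56 and -0.51 on the log2 scale, with adjusted p of 0.0103, 0.0339 and 0.0394. UQCR10 was lower at -0.76 (SE 0.13, adjusted p = 0.00761). The complex IV subunits COX6B1 and COX5A were lower at -0.65 (SE 0.13, adjusted p = 0.0141) and -0.40 (SE 0.11, adjusted p = 0.0345).

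In ATP synthase the lower members were ATP5G3 and ATP5G1, which encode the membrane ring subunit c, at -0.88 (SE 0.11, adjusted p = 0.00332) and -0.82 (SE 0.16, adjusted p = 0.0130), the stalk subunits ATP5H and ATP5J at -0.51 (SE 0.12, adjusted p = 0.0202) and -0.46 (SE 0.13, adjusted p = 0.0391), and ATP5B at -0.38 (SE 0.11, adjusted p = 0.0487). The call of ATP5B held in 6 of 19 alternative fits. ATP5A1, partner of ATP5B in the head, had -0.33 (SE 0.11, adjusted p = 0.0660) and was not called.

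**Figure D3:**
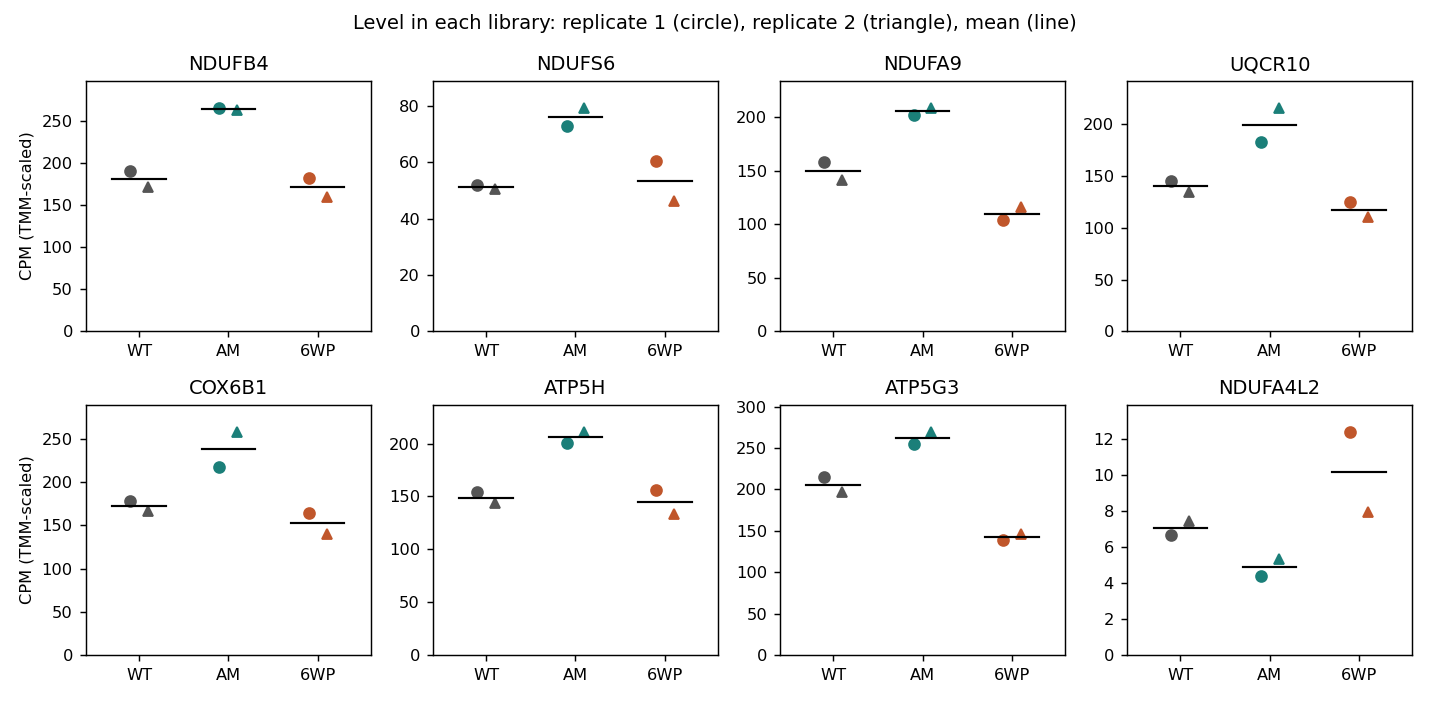
Level in CPM (vertical axis, from 0) in each library for the 6 members called in both comparisons with AM, and for ATP5G3 and NDUFA4L2. AM lies above both other groups in the first 7 panels, and NDUFA4L2 alone is lowest in AM.

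Promoter sequences are shown for the 6 members called both higher in AM than WT and lower in 6WP than AM, as the members that passed both tests, which share the AM libraries. A RefSeq promoter of 300 bases, from 250 before to 50 after the start (GRCh38.p14), was matched for 62 of the 78 members. Below are the 160 bases just before each start, 5′ to 3′ on the gene's strand, with capitals where letters of an NRF1 (CGCNTGCG), ETS (CCGGAAG), YY1 (AAGATGGC) or CRE (TGACGTCA) motif match on either strand.
NDUFB4 (chr3:120596176-120596335, plus strand): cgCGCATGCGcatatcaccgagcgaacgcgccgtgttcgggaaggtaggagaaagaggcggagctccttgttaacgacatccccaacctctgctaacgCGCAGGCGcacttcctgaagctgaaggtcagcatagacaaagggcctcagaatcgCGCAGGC
NDUFS6 (chr5:1801247-1801406, plus strand): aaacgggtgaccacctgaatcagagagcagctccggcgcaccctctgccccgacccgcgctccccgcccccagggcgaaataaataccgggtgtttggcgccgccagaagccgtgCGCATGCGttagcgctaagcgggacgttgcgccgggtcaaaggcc
NDUFA9 (chr12:4648954-4649113, plus strand): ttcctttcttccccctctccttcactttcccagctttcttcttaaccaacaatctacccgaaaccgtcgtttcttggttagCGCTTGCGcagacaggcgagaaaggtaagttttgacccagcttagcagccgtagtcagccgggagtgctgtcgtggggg
UQCR10 (chr22:29767209-29767368, plus strand): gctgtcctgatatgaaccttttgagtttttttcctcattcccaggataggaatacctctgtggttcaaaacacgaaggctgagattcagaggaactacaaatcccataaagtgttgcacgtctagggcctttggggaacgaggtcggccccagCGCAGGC
COX6B1 (chr19:35648163-35648322, plus strand): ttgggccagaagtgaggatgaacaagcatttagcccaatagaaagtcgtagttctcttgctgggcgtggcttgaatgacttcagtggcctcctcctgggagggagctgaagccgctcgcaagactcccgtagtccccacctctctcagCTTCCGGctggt
ATP5H (chr17:75046970-75047129, minus strand): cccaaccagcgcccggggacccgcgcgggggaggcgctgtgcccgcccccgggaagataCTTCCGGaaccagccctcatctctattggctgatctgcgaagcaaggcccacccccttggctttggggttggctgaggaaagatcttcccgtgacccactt
NDUFB4, NDUFS6, NDUFA9 and UQCR10 held NRF1 letters, and COX6B1 and ATP5H held ETS letters. The last capitals of NDUFB4 and UQCR10 are 7 of 8 motif bases, whose end lies past the start.

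The motifs named here are of factors known to act at genes for mitochondrial proteins. NRF1 letters were in 22 of the 62 member promoters (35.5%) and in 10.6% of 27305 promoters of the same length. The 27305 were not limited to the tested genes, and promoters of the tested genes alone were not compared. ETS letters were in 19 members (30.6%) against 10.7%, YY1 letters in 11 (17.7%) against 3.03%, and CRE letters in 5 (8.06%) against 1.98%. Letters of the amino acid response motif (TGATGNAA) were in 1 (1.61%) against 3.67%, and those of the hypoxia response motif (ACGTG) in 17 (27.4%) against 21.6%. Among the 10 members called higher in AM, 4 held NRF1 and 2 ETS letters. A match of letters is a description and shows no binding. Of the factors themselves, NRF1, GABPA and YY1 were called in none of the 3 comparisons by edgeR, at unadjusted p above 0.05 in each. NRF1 had 32.5 and 31.3 CPM in WT, 32.2 and 30.4 CPM in AM and 40.5 and 30.3 CPM in 6WP, and GABPA, an ETS factor, had 63.8 and 57.3 CPM in WT, 59.3 and 58.1 CPM in AM and 56.4 and 53.8 CPM in 6WP. YY1 ran from 101 to 109.6 CPM over all libraries. PPARGC1A, a coactivator of these genes, had at most 0.289 CPM in any library and was not tested.

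Against WT, 6WP cells showed 1 member called lower and 0 called higher, with a median of 0.038 beside 0.013 over all genes. All tested genes gave 1.37% lower and 1.63% higher. At an unadjusted p under 0.05, 4 members were higher and 3 lower, beside 11.3% and 11% of all genes. DESeq2's Wald test called 2 lower and 0 higher, beside 3.99% and 3.61%. Both 6WP libraries were above both WT libraries in 15 members and below in 12, against 25.5% and 25.2% of all genes. The member called was ATP5G3 (chromosome 2, 175176258 to 175181710, minus strand, GRCh38), with 215 and 197 CPM in WT, 255 and 269.9 CPM in AM and 139 and 147 CPM in 6WP and a 6WP against WT log2 fold change of -0.53 (SE 0.11, adjusted p = 0.0420). Its 6WP libraries lay close together and below all 4 untreated libraries. ATP5G3 was called in 11 of 19 alternative fits, and its change ran from -0.60 to -0.41 over them. NDUFA9 had the next lowest adjusted p, at -0.45 (SE 0.11, adjusted p = 0.0743), and was called in 3 of 19.

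The 6WP libraries disagreed on this group of genes. Between replicate 2 and replicate 1 the median member differed by -0.37 on the log2 scale. In replicate 2, 66 of 78 members were lower, beside 7425 of 14672 tested genes. The median over all genes was -0.0084, and the median absolute difference was 0.37 for members and 0.28 for all genes. Fitted without replicate 1, 6WP had 20 members lower and 0 higher than WT, beside 14% and 11.2% of all genes. Without replicate 2 it had 30 higher and 2 lower, beside 12.4% and 13.5%. ATP5G3 and NDUFA9 were the 2 members called lower with either library alone. COX7B, NDUFA4, NDUFA7, NDUFB8 and UQCRQ were called higher with the first and lower with the second.

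**Figure D4:**
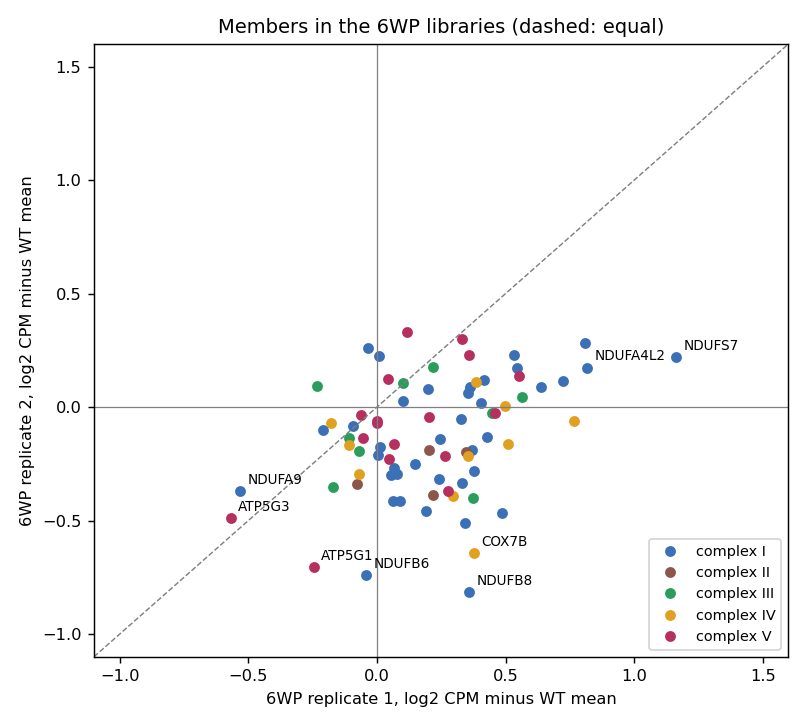
Each point is 1 member, with its log2 CPM minus the WT mean in 6WP replicate 1 (horizontal axis) and replicate 2 (vertical axis), coloured by complex. At the lower right 35 members are above WT in replicate 1 and below it in replicate 2, and ATP5G3 and NDUFA9 lie together at the lower left.

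NDUFB8, an accessory subunit of complex I, had 139 and 127 CPM in WT, 168 and 178 CPM in AM and 171 and 75.7 CPM in 6WP, a log2 difference of -1.17 between the 6WP libraries. COX7B had 192 and 161 CPM in WT, 206 and 224 CPM in AM and 228 and 112.4 CPM in 6WP, a difference of -1.02. For COX7B all 4 untreated libraries lay between the 6WP libraries, and for NDUFB8 3 of the 4 did. By complex, the median difference was -0.38, -0.47, -0.12, -0.53 and -0.12 for complexes I to V, so complexes III and V differed least between these libraries. Of the 78 members, 24 were above the WT mean in both 6WP libraries, among them UQCRC1, NDUFV1 and NDUFS8. Below it in both were 17, among them COX4I1, COX5A, UQCR10 and ATP5B. Another 35 were above it only in replicate 1 and 2 only in replicate 2. These counts were not made over all genes.

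The members are short transcripts, with a median of 830.5 bases beside 2471 over all symbols with a length (GENCODE canonical transcripts). The difference between 6WP libraries moved with length in all genes: its median was -0.15 up to 600 bases, -0.26 from 600 to 1000, -0.19 from 1000 to 2000, -0.04 from 2000 to 4000 and 0.13 above. For the members in these classes it was -0.49, -0.38, -0.35, -0.12 and 0.02. The AM against WT change also moved with length, with all-gene medians of -0.02, 0.28, 0.18, 0.06 and -0.13 and member medians of 0.38, 0.35, 0.31, 0.24 and 0.24. The cytosolic ribosomal proteins, whose lengths are not given here, had medians of opposite sign to those of the members. Their median was 0.33 between 6WP replicates 2 and 1. In AM against WT it was -0.42, with 21 of 83 called lower and 0 higher (31 and 2 by DESeq2). In 6WP against AM it was 0.61, with 52 called higher and 0 lower. They summed to 106334 and 105477 CPM in WT, 72163 and 84281 CPM in AM, and 109032 and 140238 CPM in 6WP. Of all genes, 9.93% were called lower and 7.74% higher in AM against WT (10.5% and 10.3% by DESeq2). In 6WP against AM 11.7% were called higher and 9.68% lower. The part of length or library composition in the member results was not tested beyond the length correction.

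Subunit c of ATP synthase, which forms the rotating ring, is made from 3 genes, ATP5G1, ATP5G2 and ATP5G3 (ATP5MC1 to ATP5MC3). They encode the same mature protein behind different targeting peptides. Their levels moved apart. ATP5G1 had 194 and 173 CPM in WT, 223 and 250.1 CPM in AM and 155 and 112.5 CPM in 6WP, and ATP5G3 is given above. ATP5G2 had 619 and 597 CPM in WT, 533 and 587 CPM in AM and 608 and 582 CPM in 6WP, with AM against WT, 6WP against AM and 6WP against WT changes of -0.12, 0.09 and -0.03, none called. ATP5G2 thus stayed between 533 and 619 CPM while ATP5G1 and ATP5G3 were highest in AM and lowest in 6WP. Both were called lower in 6WP than AM, as given above. Neither was called in AM against WT, at 0.36 (adjusted p = 0.146) for ATP5G1 and 0.35 (adjusted p = 0.054) for ATP5G3. In 6WP against WT ATP5G3 was called, and ATP5G1 was not, at -0.46 (adjusted p = 0.1502).

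The 3 genes summed to 1028 and 968 CPM in WT, 1011 and 1107 CPM in AM, and 901 and 841 CPM in 6WP. ATP5G2 supplied 61% ± 1.08 (SD, n = 2) of these reads in WT, 52.9% ± 0.222 in AM and 68.3% ± 1.25 in 6WP. The shares did not overlap between any pair of groups, and here the 6WP libraries were close together, at 67.4% and 69.2%. The share was not tested. The sum is of reads and is not corrected for transcript length.

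**Figure D5:**
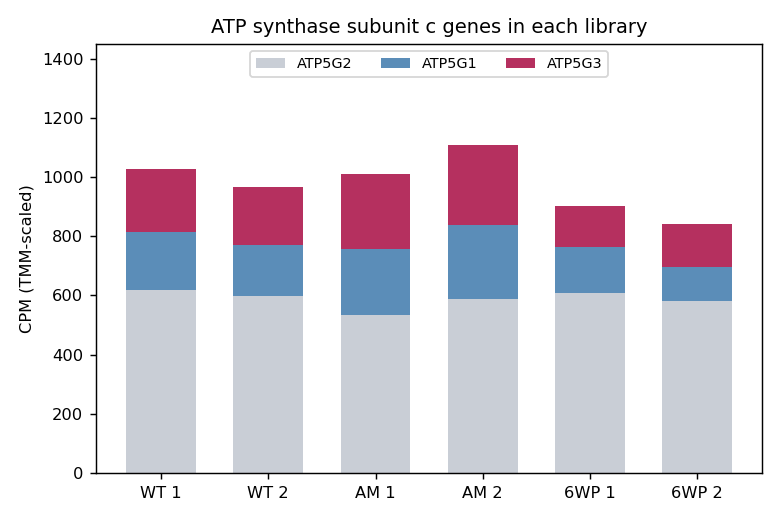
Stacked bars give the CPM of ATP5G2, ATP5G1 and ATP5G3 in each library (vertical axis from 0). The ATP5G2 part differs little in height while the other parts are tallest in AM and shortest in 6WP.

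NDUFA4L2 went against the group. It is a paralogue of NDUFA4, itself now counted with complex IV, and is known as a gene induced at low oxygen. Its levels were low, at 6.70 and 7.44 CPM in WT, 4.39 and 5.36 CPM in AM and 12.4 and 7.96 CPM in 6WP. Both AM libraries were below all others, and 6WP exceeded AM by 1.06 (SE 0.25, adjusted p = 0.0224). The change was 0.69 without 6WP replicate 1 and 1.31 without replicate 2. NDUFA4 was at 502 and 458 CPM in WT, 515 and 570.4 CPM in AM and 608 and 337 CPM in 6WP, with 6WP against AM at -0.20 (SE 0.24, adjusted p = 0.572). NDUFA4L2 (chromosome 12, 57234903 to 57240715, minus strand, GRCh38) has exons that overlap those of SHMT2 on the opposite strand. SHMT2, the mitochondrial serine hydroxymethyltransferase, was at 568 and 559 CPM in WT, 627 and 682 CPM in AM and 1033 and 803 CPM in 6WP. It thus held many more reads. Both genes were highest in 6WP, but in AM against WT SHMT2 was at 0.22 and NDUFA4L2 at -0.53, neither called. The strand setting of the counting is not given in the sources used here, and a part of SHMT2 reads in the NDUFA4L2 value was not tested.

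Other members need care as to which gene the reads came from. Of the canonical transcripts, 52 shared no 100-base window with a transcript of another gene, and 7 shared over 50% of theirs: NDUFV2, NDUFA13, NDUFA7, NDUFB8, SDHA, NDUFA11 and ATP5O. For NDUFV2, 88.7% of windows recurred, in NDUFV2P1 and in a gene whose exons overlap it on the same strand. For SDHA 65.6% recurred, in SDHA pseudogenes and such an overlapping gene among others. For NDUFA13, NDUFA7, NDUFB8, NDUFA11 and ATP5O the only other gene was one that overlaps on the same strand. UQCRH and its intronless copy UQCRHL shared 18% and 32.8%. Exons on the opposite strand overlapped in 30 members and on the same strand in 25. ATP5E, the epsilon subunit, had only 1.38 to 2.43 CPM, and its near copy ATP5EP2 had 0.846 to 1.38 CPM. The canonical transcript of ATP5E was among the 52 with no shared window. Its low level is uncertain, and the part of the near copy in it was not tested. ATP5S and ATP5SL, named like subunits but known as assembly-related proteins, were at 0.01 (SE 0.18, adjusted p = 0.984) and 0.34 (SE 0.13, adjusted p = 0.108) in AM against WT.

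The subunits and carriers that the symbol rule missed gave like values. Of 7 such genes, NDUFAB1, the mitochondrial acyl carrier protein, was higher in AM than WT at 0.58 (SE 0.14, adjusted p = 0.0315). NDUFAB1 and CYCS, cytochrome c, were lower in 6WP than AM at -0.78 (SE 0.14, adjusted p = 0.0112) and -0.48 (SE 0.14, adjusted p = 0.0440). A hand-made list of 80 subunits was the members without ATP5S, ATP5SL and UQCRHL, with some missed genes such as NDUFAB1 added. Most of it is thus the members themselves, and its counts are no separate check of the rule. In it 11 were called higher in AM, 14 lower and 1 higher in 6WP against AM, and 1 lower in 6WP against WT. Shares of all genes were 7.74%, 9.68%, 11.7% and 1.37% in that order.

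Some assembly factors were higher in AM as well. In AM against WT 5 of 18 complex I factors, 3 of 10 complex II and III factors and 4 of 26 complex IV factors were called higher, and 0 in any of these lists lower. In 6WP against AM, 6, 2 and 4 of them were called lower and 0 higher. Of all genes, 7.74% were called higher and 9.93% lower in AM against WT, and 11.7% higher and 9.68% lower in 6WP against AM. C17orf89 (NDUFAF8) had 17.6 and 17.1 CPM in WT, 32.9 and 35.4 CPM in AM and 22.4 and 18.9 CPM in 6WP, an AM change of 0.98 (SE 0.14, adjusted p = 0.00606). UQCC2 had 43.2 and 39.4 CPM in WT, 67.8 and 76.3 CPM in AM and 40.3 and 40.5 CPM in 6WP, and COX17, a copper chaperone, 65.5 and 60.7 CPM in WT, 105 and 103 CPM in AM and 63.4 and 50.3 CPM in 6WP. In these 3 genes both AM libraries were above all others. The 4 ATP synthase assembly factors had 0 calls in all 3 comparisons at an adjusted p under 0.05, 0 at an unadjusted p under 0.05 and 0 by DESeq2. Their median in AM against WT was still 0.29. In all 4, both AM libraries were above both WT libraries, as in 36.9% of all genes. Their median in 6WP against AM was -0.060, with 2 positive and 2 negative.

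Of the genes that feed or regulate the chain, the 14 citric acid cycle enzymes had 5 called higher in AM than WT and 4 lower in 6WP than AM, with 0 in the opposite direction. Beside the lists here, all genes gave 7.74% higher and 9.93% lower in AM against WT. In 6WP against AM they gave 11.7% higher and 9.68% lower. OGDH, of the 2-oxoglutarate dehydrogenase complex, had 200.3 and 193 CPM in WT, 339.6 and 355 CPM in AM and 176 and 186 CPM in 6WP. The 75 mitochondrial ribosomal proteins had 17 higher and 1 lower in AM against WT, and 0 higher and 12 lower in 6WP against AM. Coenzyme Q synthesis, with 13 genes, had 1 called in each direction in both comparisons with AM. Its median was 0.33 in AM against WT, with 11 genes positive and 2 negative. In 6WP against AM it was -0.11, with 5 positive and 8 negative. Among 12 tested regulators, ESRRG alone was called in these comparisons, and its 2 AM libraries were under the floor of 3 counts.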

How the data were processed

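RNA was sequenced from 6 libraries of 22Rv1 cells, 2 each of WT, AM and 6WP. The authors deposited 1 table of whole-number counts by gene symbol, which were not normalized. The libraries were prepared with a stranded TruSeq kit. Per the submitters' processing notes, the tools were STAR 2.5.3a, StringTie 1.3.3, featureCounts 1.5.3 of Subread, edgeR 3.22.3 and R 3.5.0, with hg38. The annotation and the strand setting of the counting are not given in the sources used here.

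From these counts, genes were kept by filterByExpr in edgeR 4.0.16 (R 4.3.3), TMM factors were computed, and a quasi-likelihood fit with the 3 groups and no covariate took in all 6 libraries. The tests were two-sided, with Benjamini-Hochberg adjustment over 14672 genes and a threshold of 0.05. The 6WP against WT test was also run on simulated counts with the same spread in every group. That check does not cover the unlike 6WP libraries. With 2 libraries a group, p-values measure only the spread between these libraries. Alternatives were other scalings and filters, DESeq2 1.42.0, offsets for length and GC content (available for 93.5% of tested genes), a replicate block, 2-group fits and each library left out. Thinning to the smallest library was chosen after seeing the data. Old symbols were matched to GENCODE v44 and RefSeq, which found all 78 members.

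The members and lists were chosen with earlier results of these data known, so the lists are described by counts and medians. Genes named are the members called in any comparison, 11 core subunits, isoform pairs, and from other lists the called genes among the 2 largest changes. CYCS, PPARGC1A, NRF1, GABPA, YY1 and SHMT2, the members set out for their 6WP libraries, and those with shared or uncertain reads were added after their values were seen. A few results, among them further luminal markers, are not reported here.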

Additional observations from a re-analysis of the deposited data

How the results depend on the processing

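No called value changed sign under the alternatives, and of the values of 32 named members 1558 kept their side of the threshold, 108 passed it and 158 no longer did. For 6WP against WT (1 member called), the count was 2 with DESeq2's Wald test, 2 with a length offset, 0 with a GC offset, 0 in a fit to these groups alone, and 0 to 32 with 1 library left out. For 6WP against AM (14 called), it was 9 with upper quartile scaling, 6 in a fit to these groups alone and 0 to 56 with 1 library left out. For AM against WT (10 called), it was 1 with upper quartile scaling, 5 with library size only, 5 with a length offset, 56 in a fit to these groups alone and 0 to 56 with 1 library left out. The median member ranged from -0.15 to 0.19 in 6WP against WT and from -0.41 to -0.083 in 6WP against AM with 1 library left out, and in AM against WT from 0.25 to 0.38. A fit that leaves 1 library in a group takes it to vary as the other groups do.

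Replicate numbers did not pair the samples: deviations of same-numbered libraries correlated at 0.040 (WT and AM), 0.087 (WT and 6WP) and -0.021 (AM and 6WP). With a replicate block the counts were 0 members in 6WP against WT, 12 in 6WP against AM and 6 in AM against WT. A GC offset with the block gave 0 in 6WP against WT, and a length offset with the block gave 2 in 6WP against WT and 3 in AM against WT.

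Over all genes, 440 were called in 6WP against WT, against 894 without a filter, 1114 with DESeq2, 268 with the GC offset and block, 96 in the fit to these groups alone and 0 to 3870 with 1 library left out. In 6WP against AM 3131 became 1309 in the fit to these groups alone and 116 to 6807 with 1 library left out, and in AM against WT 2593 became 6620 and 67 to 6654. Higher calls were 1136 of 2593 in AM against WT, but 689 of 2521 with upper quartile scaling and 729 of 2393 with library size only, and 1711 of 3131 in 6WP against AM, but 2276 of 3338 with upper quartile scaling. In the same comparisons that scaling moved the median of all genes from -0.0023 to -0.094 and from 0.048 to 0.14, and the median member to 0.23 and -0.16.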

Other observations

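Genes of mitochondrial import, protein quality control and oxygen supply were measured beside the subunits. Of 20 genes of import and the outer membrane, 11 were called higher and 0 lower in AM than WT, and 10 lower and 0 higher in 6WP than AM. All genes gave 7.74% higher and 9.93% lower in AM against WT, and 9.68% lower and 11.7% higher in 6WP against AM. TOMM40, the import channel of the outer membrane, had 118 and 118 CPM in WT, 217 and 218 CPM in AM and 119 and 134 CPM in 6WP, with AM above every other library. Of 14 mitochondrial chaperones and proteases, 2 were higher in AM than WT and 2 lower in 6WP than AM. Against WT, 6WP was higher in TIMM44 at 0.83 (SE 0.14, adjusted p = 0.0262), which couples import to the chaperone HSPA9, in HSPA9 at 0.58 (SE 0.11, adjusted p = 0.0383) and in the protease LONP1 at 1.24 (SE 0.23, adjusted p = 0.0358). LONP1 had 100.5 and 111 CPM in WT, 169 and 193 CPM in AM and 318 and 183 CPM in 6WP, with 6WP replicate 1 far above replicate 2.

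Of 11 tested oxygen-regulated genes, 2 were higher and 1 lower in AM than WT, and 1 was higher and 2 lower in 6WP than AM. Shares of all genes were 7.74% and 9.93% in the first comparison and 11.7% and 9.68% in the second. LDHA, lactate dehydrogenase A, had 691 and 610.2 CPM in WT, 911 and 964 CPM in AM and 476 and 427 CPM in 6WP, and 6WP against AM was -1.05 (SE 0.12, adjusted p = 0.00272). SLC2A1, a glucose transporter, had 965 and 968 CPM in WT, 314 and 408 CPM in AM and 724 and 441 CPM in 6WP, and AM against WT was -1.42 (SE 0.23, adjusted p = 0.00841). VEGFA, an angiogenic factor, was higher in 6WP than WT at 1.16 (SE 0.13, adjusted p = 0.00691). The genes of this list did not move one way.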
